A study of Mus musculus with 8 samples.

Results

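The 9 genes described here, Pparg, Cebpa, Cebpd, Klf15, Ebf2, Mlxipl, Srebf1, Nr1h3 and Rxra, encode transcription factors of adipocyte formation and of adipocyte fat synthesis. They were chosen by name, and they are 9 of the 37417 genes in the deposited table. All 9 were found in the table under their symbols, and all 9 passed the filter on low counts. The RNA came from epididymal fat of chow-fed male C57Bl/6 mice, and the study compared 4 mice of the genotype Adiponectin-Cre ERT2-Atg3 flox/flox (KO) with 4 WT mice. Atg3 encodes an enzyme that couples LC3-family proteins to lipid during autophagy. In the KO mice an adiponectin-driven, tamoxifen-activated Cre recombinase removes Atg3 in adipocytes after tamoxifen is given. Other cell types of the fat pad are meant to keep the gene. All 8 mice received tamoxifen, and the labels do not say whether the WT mice carried Cre or floxed alleles. Ages, tamoxifen dose and the time between tamoxifen and sampling were not given in the sources used here.

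PPARγ (Pparg) and C/EBPα (Cebpa) are the central factors of fat cell differentiation: each sustains the gene of the other, and together they occupy most of the genes that define an adipocyte. C/EBPδ (Cebpd) and KLF15 act earlier or alongside them, EBF2 marks adipocyte precursors and brown fat cells, and PPARγ and LXRα (Nr1h3) bind DNA as pairs with retinoid X receptors such as RXRα (Rxra). ChREBP (Mlxipl) responds to glucose metabolites, SREBP1 (Srebf1) responds to insulin and sterols, and both switch on genes of fatty acid synthesis, while LXRα responds to oxidised sterols and is itself known to drive Srebf1.

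Reads were counted per gene, so isoforms with separate start sites (PPARγ1 and PPARγ2, SREBP1a and SREBP1c, ChREBP-α and ChREBP-β) were not resolved. RefSeq start sites (build GRCm38.p6, the same coordinates as mm10) were matched for 7 of the 9 genes and gave 14 windows of 250 bases upstream of a start. There was no entry for Cebpd or Ebf2. The 4 windows printed here are those of the genes with several start sites in which a searched motif was found. All are written 5′ to 3′ in the direction of transcription, with the motif in capitals.
Pparg, chr6:115421816-115422065, plus strand: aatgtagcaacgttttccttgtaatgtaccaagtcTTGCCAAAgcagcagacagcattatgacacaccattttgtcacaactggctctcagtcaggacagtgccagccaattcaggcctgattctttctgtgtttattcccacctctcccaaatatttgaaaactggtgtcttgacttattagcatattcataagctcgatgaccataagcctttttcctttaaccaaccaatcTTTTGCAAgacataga
Mlxipl upstream start, chr5:135089640-135089889, plus strand: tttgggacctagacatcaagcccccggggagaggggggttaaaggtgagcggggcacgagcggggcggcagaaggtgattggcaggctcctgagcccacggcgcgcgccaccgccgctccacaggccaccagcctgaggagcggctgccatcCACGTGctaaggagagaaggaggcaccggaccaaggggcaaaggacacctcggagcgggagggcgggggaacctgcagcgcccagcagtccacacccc
Mlxipl downstream start, chr5:135106641-135106890, plus strand: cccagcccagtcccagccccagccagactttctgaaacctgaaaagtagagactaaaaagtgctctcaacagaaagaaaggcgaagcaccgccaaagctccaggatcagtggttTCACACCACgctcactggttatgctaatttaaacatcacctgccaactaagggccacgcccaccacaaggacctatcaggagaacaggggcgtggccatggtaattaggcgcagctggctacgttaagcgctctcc
Srebf1, chr11:60210472-60210721, minus strand: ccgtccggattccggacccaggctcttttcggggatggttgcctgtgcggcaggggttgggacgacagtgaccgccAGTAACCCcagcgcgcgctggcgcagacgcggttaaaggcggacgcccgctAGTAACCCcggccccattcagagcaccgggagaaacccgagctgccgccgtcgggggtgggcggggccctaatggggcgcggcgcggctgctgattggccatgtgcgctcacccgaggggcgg
The capitals mark TTGCNNAA (a C/EBP-type site) in the Pparg window, CACGTG (an E-box) in the upstream Mlxipl window, TCACNCCAC (an SREBP-type site) in the downstream Mlxipl window and GGGTTACT (the first letters of an LXR-type site) in the Srebf1 window. Both strands were searched, and the Srebf1 matches read AGTAACCC on the strand printed. Among 32851 mouse promoter windows of the same length, 9.56% held the C/EBP-type site, 6.02% the E-box, 1.05% the SREBP-type site and 0.484% the LXR-type letters. The C/EBP-type matches began 215 and 16 bases before the Pparg start, and the LXR-type matches began 174 and 123 bases before the Srebf1 start. The LXR-type letters were chosen with these windows already seen. The only other match among the 14 windows was the E-box in the Klf15 window, which held 2. A match is a description of these letters and not a measured binding site.

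The 8 libraries held 12952190 to 21688464 counted reads in KO fat and 10986375 to 17128811 in WT fat. Atg3 had 30.5, 32.2, 30.8 and 27.8 CPM (counts scaled to library size by TMM) in KO fat, against 49.1, 44.5, 53.6 and 53.5 CPM in WT fat, a log2 fold change of −0.73 (edgeR quasi-likelihood test, adjusted p = 0.0168). The remaining Atg3 RNA is that of whole tissue, in which cells other than adipocytes are also present. KO libraries 2 and 3 stood apart: 20 markers of duct epithelium summed to 646 and 660 CPM there, to 54.3 and 64.7 CPM in KO libraries 1 and 4, and to between 11.98 and 32.6 CPM in WT fat, so results are also given without both. The 7 adipocyte markers summed to 15467 to 17463 CPM in KO fat and 16733 to 21105 CPM in WT fat, with overlap. Of these 7 genes none was called, 6 had a negative log2 fold change with a median over the list of −0.41, and the other, Cidec, had 0.47. At an unadjusted p under 0.05, 3 of the 7 were lower in KO fat, and 2 of these, Adipoq and Adrb3, did not overlap. Over all genes tested, 52.4% had a negative fold change and 7.66% were lower at this level. Every KO library lay below every WT library for 4.54% of them. The adipocyte markers thus moved in the same direction as most of the 9 genes, and their part in the results on these genes was not tested. All 7 are also in the list of PPARγ and C/EBPα target genes described below. The 6 endothelial markers summed to 1166 to 1346 CPM in KO fat and 1461 to 1673 CPM in WT fat, without overlap, and all 6 had a negative fold change, with a median of −0.33 and none called. Reads of mitochondrial genes were 5.03% to 6.08% of the total in KO fat and 3.05% to 4.93% in WT fat. None of the 7 marker lists had a gene at 0 in all libraries. In whole tissue, fewer cells of a type and less RNA per cell cannot be told apart.

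All 9 genes had at least 282 reads in every library, the lowest count being that of Cebpd, and their levels spanned a wide range. Levels between genes are compared as FPKM, the deposited value that divides a count by exon length and library size. Cebpa was the most abundant at 221 ± 18.8 FPKM in KO fat and 288 ± 28.3 FPKM in WT fat (SD, n = 4 each, here and below). Pparg followed at 104 ± 10.5 FPKM in KO fat and 120.4 ± 4.60 FPKM in WT fat, and neither gene overlapped a neighbour in this order. The next pair was Rxra, at 48.0 ± 2.10 FPKM in KO fat and 48.4 ± 4.76 FPKM in WT fat, and Srebf1, at 46.9 ± 10.7 FPKM in KO fat and 69.3 ± 11.8 FPKM in WT fat. Rxra and Srebf1 overlapped, at 46.1 to 50.3 and 31.2 to 54.9 FPKM in KO fat and by a narrow margin, at 43.8 to 54.1 and 54.0 to 82.8 FPKM, in WT fat.
Nr1h3 stood at 36.1 ± 3.85 FPKM in KO fat and 43.1 ± 3.85 FPKM in WT fat, and its values overlapped those of Srebf1 and Cebpd in KO fat and those of Rxra in WT fat. Klf15, at 25.8 ± 1.68 FPKM in KO fat and 28.2 ± 4.33 FPKM in WT fat, and Cebpd, at 26.3 ± 10.5 FPKM in KO fat and 25.1 ± 2.13 FPKM in WT fat, overlapped each other in both genotypes. Mlxipl lay within that group in WT fat, at 23.6 to 34.7 FPKM, where Klf15 had 23.8 to 33.03 and Cebpd 23.0 to 27.1 FPKM. In KO fat, Mlxipl had 16.5 to 20.8 FPKM, below every Klf15 value there (23.9 to 27.9 FPKM), and it still overlapped Cebpd (18.5 to 41.7 FPKM). Ebf2 was lowest of the 9, at 6.23 ± 1.24 FPKM in KO fat and 8.59 ± 1.27 FPKM in WT fat, apart from all others.

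**Figure D1:**
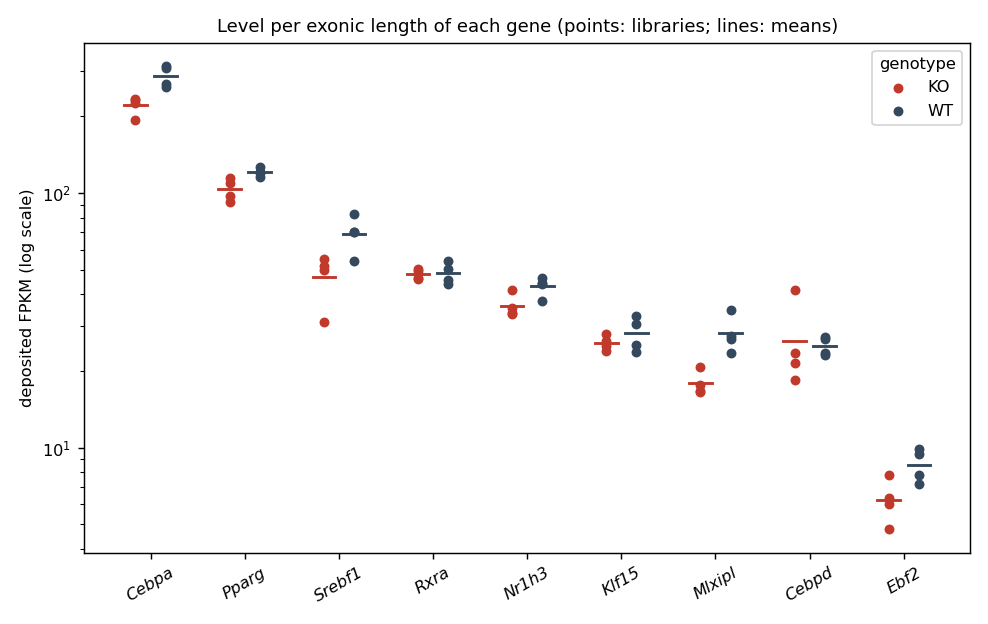
Levels of the 9 genes as deposited FPKM on a log axis, KO left of WT for each gene, with 1 point per mouse and a line at the mean of 4. Cebpa and Pparg stand above the rest in both genotypes, Ebf2 stands lowest, and the Mlxipl points lie below the Klf15 points in KO fat (16.5 to 20.8 FPKM against 23.9 to 27.9 FPKM) and overlap them in WT fat.

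Between KO and WT fat, none of the 9 genes passed the test (0 called at an adjusted p of 0.05), in a comparison in which 60 of 14800 genes tested, 0.405%, were called (41 higher in KO fat, 0.277%, and 19 lower, 0.128%). At an unadjusted p under 0.05, 5 of the 9 genes, Mlxipl, Cebpa, Ebf2, Srebf1 and Nr1h3, were lower in KO fat, where 7.66% of all genes tested were lower and 16.2% (2394 genes) differed in either direction. The fold change was negative for 8 of the 9 genes, against 52.4% of all genes tested, with a median of −0.27 (log2), against −0.01 over all genes tested. For 3 genes, Mlxipl, Cebpa and Srebf1, every KO mouse lay below every WT mouse, which held for 4.54% of all genes tested. In the deposited FPKM, which are not TMM-scaled, Srebf1 overlapped (up to 54.9 in KO fat, from 54.0 in WT fat), while Pparg separated by a narrow margin (up to 114.96 in KO fat, from 115.2 in WT fat), and Mlxipl and Cebpa separated as well. By DESeq2, 1 of the 9, Mlxipl, was called lower, against 1.97% of all genes called lower and 5.49% called in either direction. Without KO libraries 2 and 3, none was called, the median was −0.29 and 8 of 9 fold changes were negative. The 9 genes were not drawn independently of each other or of earlier results of these data, so these counts are a description.

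**Figure D2:**
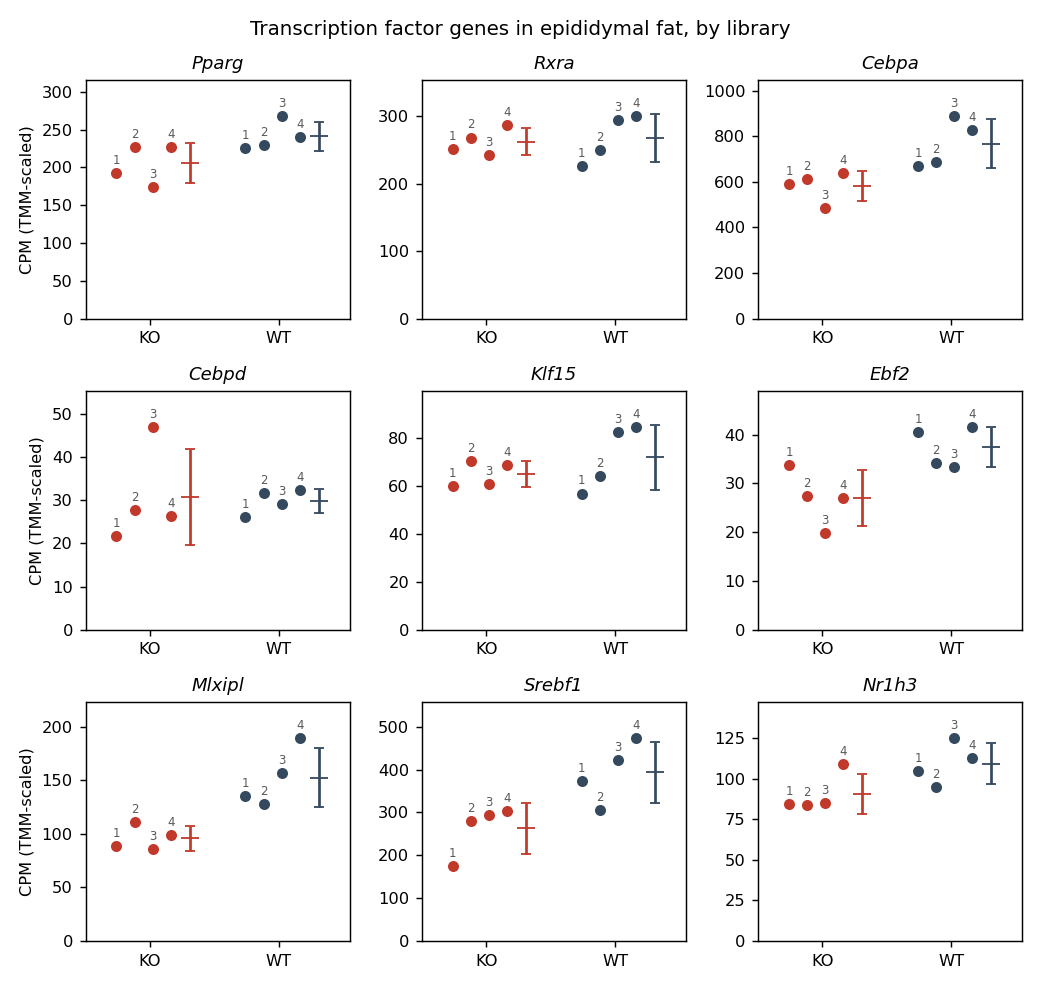
TMM-scaled CPM of the 9 genes in each library, 1 panel per gene with its own axis from 0, KO left of WT, with 1 point per mouse and the mean ± SD of 4. KO and WT points separate for Mlxipl, Cebpa and Srebf1, touch at 1 point for Ebf2 (33.8 CPM in KO library 1 against 33.5 CPM in WT library 3) and overlap for the other 5 genes.

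Neither PPARγ nor its partner RXRα passed the test, and the fold change of Pparg was negative while that of Rxra lay near 0. Pparg, the nuclear receptor on which fat cell identity depends, had 193, 227, 174 and 227 CPM in KO fat, against 226, 230.1, 268 and 240.5 CPM in WT fat. KO libraries 2 and 4 lay just above the lowest WT library, and KO libraries 1 and 3 lay below all WT libraries. The log2 fold change was −0.23 ± 0.108 (SE), with a 95% interval of −0.47 to 0.01 and an adjusted p of 0.336 (edgeR), so a moderate decrease and no change both lay within the error. Rxra had 251, 268, 242 and 287 CPM in KO fat, against 226, 249.5, 294 and 299.7 CPM in WT fat. The groups overlapped throughout, the WT libraries spread more widely than the KO libraries, and the log2 fold change was −0.03 ± 0.111 (95% interval −0.28 to 0.22, edgeR adjusted p = 0.923). Without KO libraries 2 and 3 the log2 fold change of Rxra was 0.02 (edgeR adjusted p = 0.984), a change of sign around 0, and that of Pparg was −0.19 (edgeR adjusted p = 0.718).

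Their paralogues were less uniform. Rxrg, the retinoid X receptor with the narrowest tissue distribution, had 11.8, 9.41, 7.83 and 11.6 CPM in KO fat, against 16.1, 16.3, 18.2 and 18.8 CPM in WT fat. Every KO library lay below every WT library, yet the log2 fold change of −0.77 ± 0.151 did not pass the threshold (edgeR adjusted p = 0.0775). It passed without KO library 1 (−0.85, edgeR adjusted p = 0.0457) and with DESeq2 (−0.76, adjusted p = 0.000781), and was −0.56 (edgeR adjusted p = 0.259) without KO libraries 2 and 3. Ppard, the widely expressed relative of PPARγ, was named after its values were seen: it had 11.1 ± 0.961 FPKM in KO fat and 8.47 ± 0.775 FPKM in WT fat, without overlap and against the direction of Pparg (log2 fold change 0.38, edgeR adjusted p = 0.159). The FPKM ratio of Pparg to Ppard was 9.30 (8.53 to 9.83 over the mice) in KO fat and 14.3 (12.6 to 15.8) in WT fat. The ratio of Rxra to Rxrg was 10.96 (8.97 to 13.0) in KO fat and 6.45 (5.91 to 6.80) in WT fat. Neither pair of ranges overlapped. Ppard and Rxrg themselves separated between the genotypes, and the share of such ratios over other gene pairs was not computed. Ppara, at 0.891 ± 0.266 FPKM in KO fat and 1.27 ± 0.262 FPKM in WT fat, had the same direction as Pparg (log2 fold change −0.51, edgeR adjusted p = 0.386). The FPKM ratio of Pparg to Ppara was 119 (85.3 to 145) in KO fat and 96.3 (76.5 to 126) in WT fat, with overlap. Rxrb, the retinoid X receptor found in most tissues, had 13.4 FPKM in KO fat and 13.1 FPKM in WT fat (log2 fold change 0.01, edgeR adjusted p = 0.968). For Rxra to Rxrb the FPKM ratio was 3.59 (3.05 to 4.17) in KO fat and 3.69 (3.26 to 4.48) in WT fat, with overlap.

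Of the C/EBP factors, Cebpa was lower in every KO mouse and Cebpd was not. Cebpa had 590, 612, 485 and 637 CPM in KO fat, against 668, 689, 888 and 826 CPM in WT fat. The highest KO library lay below the lowest WT library, and the log2 fold change was −0.40 ± 0.131 (95% interval −0.70 to −0.11), but the adjusted p was 0.186 (edgeR). Leaving out KO libraries 2 and 3 gave −0.31 (edgeR adjusted p = 0.643). Cebpd, which is induced early in fat cell differentiation and by glucocorticoids, had 21.7, 27.7, 46.9 and 26.4 CPM in KO fat, against 26.1, 31.7, 29.0 and 32.4 CPM in WT fat. KO library 3 was the highest of the 8, and the other 3 KO libraries lay within or below the WT range. The coefficient of variation was 36.2% in KO fat and 9.58% in WT fat, and the log2 fold change was 0.04 ± 0.217 (95% interval −0.45 to 0.53, edgeR adjusted p = 0.948). It was −0.23 (edgeR adjusted p = 0.445) without KO library 3 and −0.30 (edgeR adjusted p = 0.613) without KO libraries 2 and 3. The deposited gene model of Cebpd ends 2565 bases before that of GENCODE vM21, the table classes it as a processed pseudogene, and exons of Spidr lie on its other strand; whether the counting used strand was not given in the sources used here.

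Cebpb, an early partner of Cebpd, had 19.8 FPKM in KO fat and 21.5 FPKM in WT fat (log2 fold change −0.12, edgeR adjusted p = 0.723). Cebpg, a short C/EBP protein without an activation domain of its own, averaged 115 ± 6.92 CPM in KO fat and 142 ± 10.9 CPM in WT fat (log2 fold change −0.31, edgeR adjusted p = 0.137). Like Cebpa, Cebpg did not overlap, at 108 to 123 CPM in KO fat and 130 to 156 CPM in WT fat. The FPKM ratio of Cebpa to Cebpd was 8.81 (4.63 to 12.2) in KO fat and 11.5 (9.72 to 13.7) in WT fat, with overlap. That of Cebpa to Cebpb was 11.2 (7.93 to 12.8) in KO fat and 13.6 (9.30 to 16.9) in WT fat, also with overlap.

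The regulators KLF15 and EBF2 differed in how far apart the genotypes lay. Klf15, a zinc-finger factor known for roles in fat cell differentiation and amino acid breakdown, had 60.3, 70.3, 60.7 and 69.0 CPM in KO fat, against 56.9, 64.4, 82.5 and 84.6 CPM in WT fat. All KO libraries lay inside the WT range, and the log2 fold change was −0.15 ± 0.133 (95% interval −0.45 to 0.15, edgeR adjusted p = 0.631). Ebf2 had 33.8, 27.4, 19.8 and 27.1 CPM in KO fat, against 40.5, 34.3, 33.5 and 41.5 CPM in WT fat. KO library 1 exceeded WT library 3 by a small margin, and the other KO libraries lay below all WT libraries. The log2 fold change of Ebf2 was −0.47 ± 0.155 (95% interval −0.82 to −0.12, edgeR adjusted p = 0.189), and −0.29 (edgeR adjusted p = 0.634) without KO libraries 2 and 3. Ebf1 and Ebf3, which share its DNA-binding domain, had log2 fold changes of −0.40 each (edgeR adjusted p = 0.143 for Ebf1 and 0.145 for Ebf3). The FPKM ratio of Ebf2 to Ebf1 was 0.430 in KO fat and 0.452 in WT fat. The 8 markers of preadipocytes and fibroblasts, cells in which Ebf2 is also known to be active, summed to 1322 to 2141 CPM in KO fat and 1641 to 2211 CPM in WT fat, with overlap, and their part in the Ebf2 values was not tested.

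The genes of the lipogenic factors ChREBP and SREBP1 had the most negative fold changes of the 9 when all 8 libraries were used, though neither passed the test. Without KO library 1, Ebf2 (−0.60) lay below Srebf1 (−0.43). Mlxipl had 88.4, 111, 85.4 and 98.8 CPM in KO fat, against 135, 128, 157 and 189 CPM in WT fat. Every KO library lay below every WT library, and the mean was 96.0 ± 11.7 CPM in KO fat and 152 ± 27.5 CPM in WT fat. The log2 fold change was −0.67 ± 0.138, a level 1.59-fold higher in WT, with a 95% interval of −0.98 to −0.35 that excluded 0 for this gene taken alone; after adjustment over all genes it was not called (edgeR adjusted p = 0.0907). DESeq2 called it, at −0.66 and an adjusted p of 0.00102. Leaving out KO libraries 2 and 3 gave −0.69 (edgeR adjusted p = 0.289). The deposited gene model of Mlxipl starts at position 135106891 of chromosome 5, the downstream start of the windows printed above, while that of GENCODE vM21 starts at 135089890, so the count is that of the shorter model. The use of the 2 starts was not measured here.

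Srebf1 had 175, 281, 295 and 303 CPM in KO fat, against 373, 306, 424 and 473 CPM in WT fat. KO library 4, at 303 CPM, lay just below WT library 2, at 306 CPM, and KO library 1 was the lowest of the 8. The log2 fold change was −0.58 ± 0.193 (95% interval −1.02 to −0.14, edgeR adjusted p = 0.195), and −0.71 (edgeR adjusted p = 0.523) without KO libraries 2 and 3. Exons of Rai1 lie on the other strand of Srebf1, and Rai1 had 6045 reads over the 8 libraries, against 38625 for Srebf1. Srebf2, whose protein mainly drives cholesterol synthesis, had 16.2 ± 2.97 FPKM in KO fat and 13.7 ± 2.89 FPKM in WT fat (log2 fold change 0.23, edgeR adjusted p = 0.461). The FPKM ratio of Srebf1 to Srebf2 was 2.86 (2.38 to 3.39) in KO fat and 5.07 (3.96 to 6.39) in WT fat, so the ranges did not overlap. Mlxip, the ChREBP relative MondoA, averaged 83.2 ± 9.66 CPM in KO fat and 110.0 ± 12.5 CPM in WT fat (log2 fold change −0.40, edgeR adjusted p = 0.141), and Mlx, the shared partner of both Mondo proteins, had a log2 fold change of 0.05 (edgeR adjusted p = 0.817). For Mlxipl to Mlxip the FPKM ratio was 1.76 (1.44 to 2.33) in KO fat and 2.10 (1.80 to 2.42) in WT fat, with overlap.

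Nr1h3 had 84.5, 83.9, 85.3 and 109 CPM in KO fat, against 105, 95.2, 125 and 113 CPM in WT fat. KO libraries 1 to 3 lay below all WT libraries, and KO library 4 lay inside the WT range. The log2 fold change was −0.27 ± 0.117 (95% interval −0.53 to −0.01, edgeR adjusted p = 0.298), and −0.16 (edgeR adjusted p = 0.794) without KO libraries 2 and 3. Nr1h2, the LXRβ gene, which is expressed in most tissues, had 29.0 FPKM in KO fat and 28.7 FPKM in WT fat. The FPKM ratio of Nr1h3 to Nr1h2 was 1.24 (1.10 to 1.48) in KO fat and 1.51 (1.33 to 1.79) in WT fat, with overlap. Macrophages also express Nr1h3, and 7 macrophage markers summed to 1220 to 1631 CPM in KO fat and 1058 to 1582 CPM in WT fat, with overlap; their part in the Nr1h3 values was not tested.

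**Figure D3:**
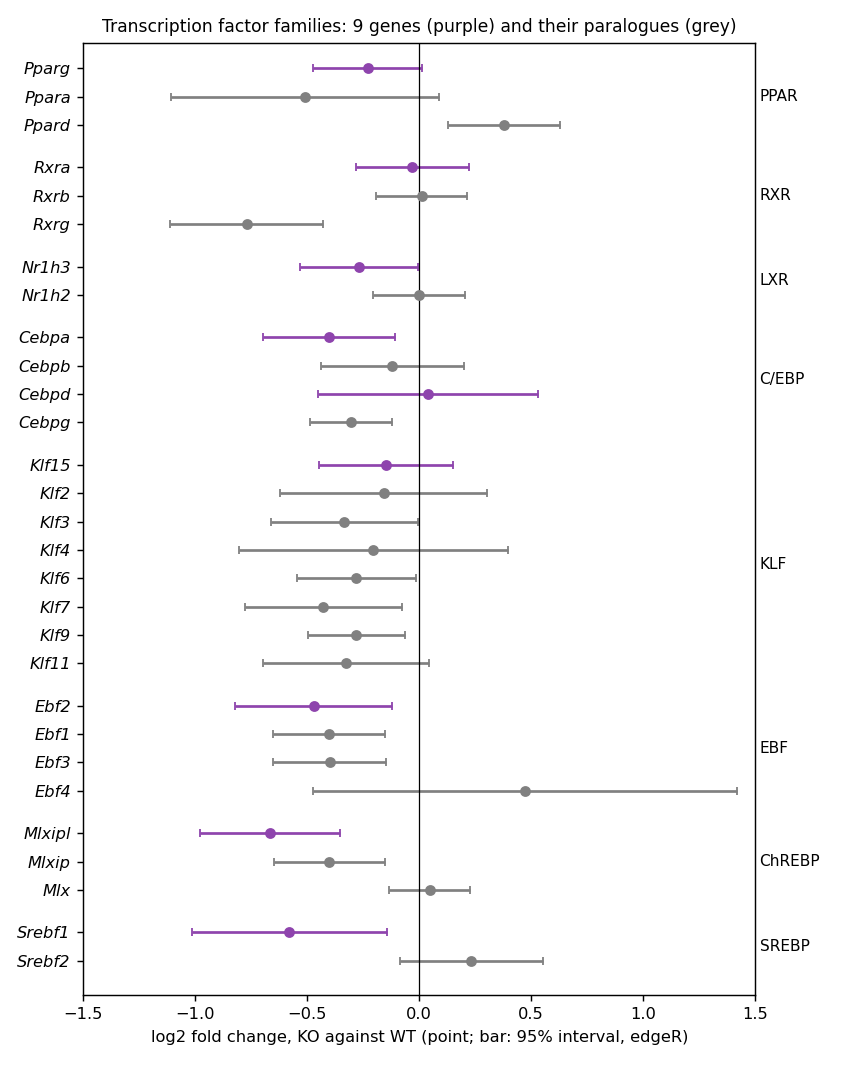
Log2 fold change, KO against WT, of each of the 9 genes and of its tested paralogues, grouped by family, with the 95% interval of edgeR's test. No interval belongs to a gene called after adjustment. Most paralogues (15 of 20) lie on the negative side, as do Ebf1 and Ebf3 beside Ebf2 and Mlxip beside Mlxipl, while Ppard (0.38) and Srebf2 (0.23), neither of them called, lie opposite Pparg (−0.23) and Srebf1 (−0.58).

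Across the 22 paralogues of the 9 genes, 20 could be tested (Cebpe and Klf5 were too low), none was called and 15 had a negative fold change, with a median of −0.28. Every KO library lay below every WT library for 5 of the 20 (Rxrg, Cebpg, Klf7, Ebf1 and Mlxip), against 4.54% of all genes tested. Every KO library lay above every WT library for 1, Ppard. At an unadjusted p under 0.05, 9 were lower and 1 was higher. Over all genes tested, 52.4% had a negative fold change and 7.66% were lower at this level. Of 28 coregulators and other regulators of adipogenesis, all tested, none was called and 22 had a negative fold change, with a median of −0.16; at an unadjusted p under 0.05, 4 were lower and 1 was higher. The 3 with the lowest p were Nrip1, Stat5b and Nr3c1. Nrip1, a corepressor of nuclear receptors also called RIP140, averaged 98.5 ± 17.2 CPM in KO fat and 151 ± 23.8 CPM in WT fat (log2 fold change −0.62, edgeR adjusted p = 0.119). Stat5b, a transducer of growth hormone signals, averaged 73.1 ± 2.42 CPM in KO fat and 83.8 ± 4.46 CPM in WT fat (log2 fold change −0.20, edgeR adjusted p = 0.191). Nr3c1, the glucocorticoid receptor, averaged 177 ± 24.8 CPM in KO fat and 217 ± 12.1 CPM in WT fat (log2 fold change −0.29, edgeR adjusted p = 0.228). Genes of the proteins that release SREBPs from the membrane or hold them there went in both directions. The log2 fold change was 0.22 for Scap (edgeR adjusted p = 0.293), 0.26 for Insig1 (edgeR adjusted p = 0.494) and 0.07 for Insig2. It was −0.16 for Mbtps1 and −0.21 for Mbtps2. Mbtps1 separated by a narrow margin, at up to 134.6 CPM in KO fat and from 135.9 CPM in WT fat.

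Among 30 known target genes of PPARγ and C/EBPα, Lgals12 fell in KO fat and the other 29 did not pass the test. Over all genes tested, 0.405% were called and 0.128% were called lower. Lgals12, which encodes a galectin found on lipid droplets, had 293, 244, 265 and 238 CPM in KO fat, against 482, 382, 427 and 397 CPM in WT fat. The groups did not overlap, and the log2 fold change was −0.70 ± 0.106 (edgeR adjusted p = 0.0360). The call was lost without any single library other than KO library 1 (adjusted p of 0.0645 to 0.154) and without KO libraries 2 and 3 together (adjusted p = 0.245, edgeR). With library size in place of TMM scaling it was also lost (edgeR adjusted p = 0.0562), and Plin4 was called instead (edgeR adjusted p = 0.0393). Plin4, a lipid droplet coat protein, averaged 2570 ± 263 CPM in KO fat and 4735 ± 868 CPM in WT fat (log2 fold change −0.88, edgeR adjusted p = 0.0630). Acsl1, which activates long-chain fatty acids, averaged 1016 ± 113 CPM in KO fat and 1674 ± 429 CPM in WT fat (log2 fold change −0.72, edgeR adjusted p = 0.125). Of the 30 genes, 27 had a negative fold change, against 52.4% of all genes tested, and the median was −0.30. Without KO libraries 2 and 3 it was −0.18, with 22 negative and none called. The 30 genes include all 7 adipocyte markers, 6 of them negative, so the 30 genes and the markers are not separate observations.

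The target genes of ChREBP and SREBP1 went in both directions, while Mlxipl and Srebf1 had negative fold changes. Of 26 lipogenic genes, 25 were tested (Pklr was too low), 14 had a positive and 11 a negative fold change, and the median was 0.18. Over all genes tested, 52.4% had a negative fold change and the median was −0.01. Among the 25, 1 gene was called, against 0.405% of all genes tested. Fads1, a desaturase of polyunsaturated fatty acid synthesis, rose: it had 123, 162, 147 and 146 CPM in KO fat, against 94.6, 82.6, 77.8 and 102 CPM in WT fat, without overlap (log2 fold change 0.70 ± 0.113, edgeR adjusted p = 0.0486). This call was lost without any single library other than KO library 1 (adjusted p of 0.0670 to 0.158) and without KO libraries 2 and 3 together (adjusted p = 0.230, edgeR), and with library size in place of TMM scaling (adjusted p = 0.0572). Pnpla3, a lipid droplet protein encoded by a target of both factors, had 77.3, 135, 128 and 259 CPM in KO fat, against 317, 350.4, 335 and 316 CPM in WT fat, without overlap, but its log2 fold change of −1.13 was not called (edgeR adjusted p = 0.140). Fads2 had 11.3, 57.0, 57.3 and 16.8 CPM in KO fat and averaged 11.1 ± 2.47 CPM in WT fat (log2 fold change 1.67, edgeR adjusted p = 0.171). Its high values were those of KO libraries 2 and 3, the same libraries in which the duct epithelium markers summed to 646 and 660 CPM; their part in the lipogenic values was not tested. Without these libraries the log2 fold change of Fads2 was 0.35 (edgeR adjusted p = 0.738), the median of the list was 0.15 and none was called.

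Across all genes tested, 0.405% were called, 52.4% had a negative fold change and the median was −0.01. Of 13 LXR target genes, 11 were tested, none was called, 9 had a negative fold change and the median was −0.19. The 3 with the lowest p were Abcc3, an organic anion exporter (37.0 ± 3.62 CPM in KO fat and 26.7 ± 4.74 CPM in WT fat, log2 fold change 0.47, edgeR adjusted p = 0.150), Mylip, a ligase that marks the LDL receptor for breakdown (90.4 ± 7.15 CPM in KO fat and 112 ± 17.3 CPM in WT fat, −0.31, adjusted p = 0.226), and Abcg1, a cholesterol exporter (34.3 ± 6.47 CPM in KO fat and 49.3 ± 12.9 CPM in WT fat, −0.52, adjusted p = 0.235). Of 14 glucocorticoid-induced genes, 14 were tested and none was called, with 9 negative and a median of −0.16. Mt2 and Mt1, metallothioneins that bind zinc and copper, averaged 158 ± 13.0 and 188 ± 17.3 CPM in KO fat, against 101 ± 19.9 and 136 ± 21.7 CPM in WT fat (log2 fold change 0.66 for Mt2, edgeR adjusted p = 0.0898, and 0.47 for Mt1, adjusted p = 0.138). Lcn2, a secreted iron-scavenging lipocalin, had 31.9, 183, 164 and 51.6 CPM in KO fat and averaged 25.7 ± 7.86 CPM in WT fat (log2 fold change 2.07, edgeR adjusted p = 0.136), again highest in KO libraries 2 and 3, and without them it was 0.72 (edgeR adjusted p = 0.567).

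Of 11 amino acid genes linked to KLF15, 10 were tested and 1, Aass, rose, while the median of the list was 0.07. Over all genes tested, 0.405% were called and 0.277% were called higher. Aass, the first enzyme of mitochondrial lysine breakdown, averaged 6.42 ± 2.74 CPM in KO fat and 1.06 ± 0.124 CPM in WT fat, a log2 fold change of 2.60 ± 0.357 (edgeR adjusted p = 0.0281). Its values ran from 2.92 CPM in KO library 1 to 9.06 CPM in KO library 3, and from 0.946 to 1.23 CPM in WT fat. Duct epithelium markers were high in KO libraries 2 and 3, and their part in the Aass values was not tested. Aass was not called without KO library 2 (edgeR adjusted p = 0.0979), without KO library 3 (0.0563) or without any single WT library (0.0672 to 0.112). Without KO libraries 2 and 3 together the log2 fold change was 2.03, also not called (edgeR adjusted p = 0.106). Dbt, a subunit of the branched-chain ketoacid dehydrogenase, averaged 70.9 ± 9.45 CPM in KO fat and 98.7 ± 7.61 CPM in WT fat (log2 fold change −0.48, edgeR adjusted p = 0.0992), and Bckdhb, another subunit, averaged 85.9 ± 13.7 CPM in KO fat and 114 ± 10.8 CPM in WT fat (−0.40, adjusted p = 0.162).

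**Figure D4:**
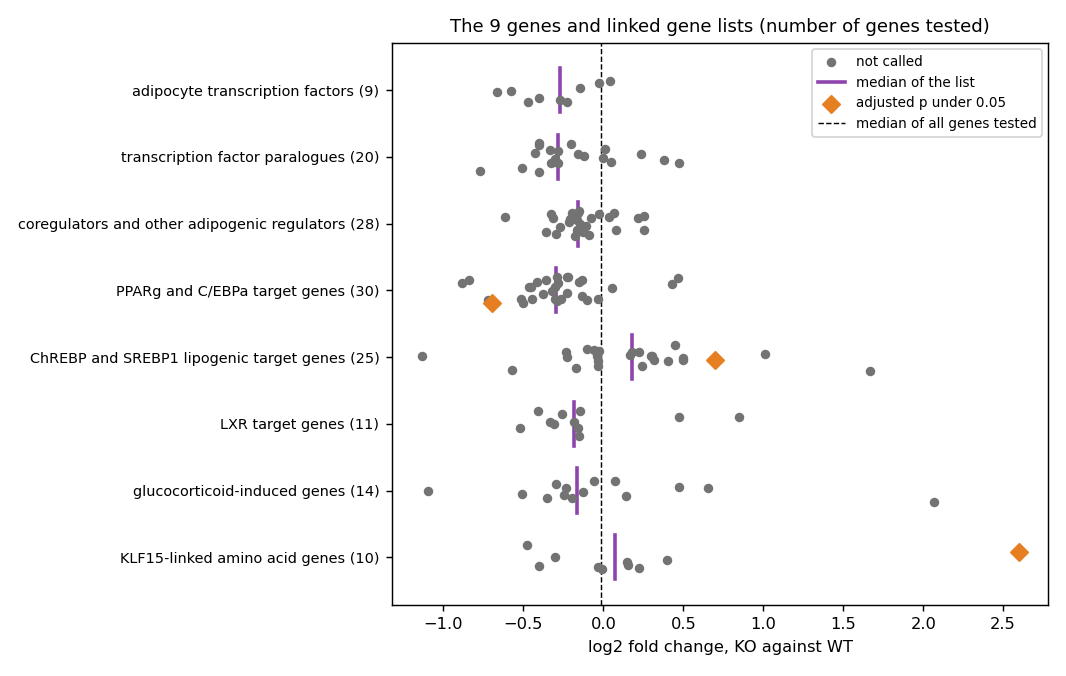
Log2 fold change, KO against WT, of the 9 genes and of each tested gene of 7 linked lists, with 1 point per gene, a bar at each list's median and a dashed line at the median of all genes tested. Medians lie below the dashed line for the 9 genes (−0.27), their paralogues (−0.28) and the PPARγ and C/EBPα targets (−0.30), and above it for the lipogenic targets (0.18); the 3 called genes are Lgals12, Fads1 and Aass.

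Across the 8 libraries some of the 9 genes varied together. These correlations of log2 CPM are descriptions over 8 libraries that share 2 genotypes and the same scaling, and each is given with the value after the genotype means were removed. Klf15 and Rxra had r = 0.937 and, within genotypes, 0.968. Pparg and Cebpa had r = 0.924 and, within genotypes, 0.868. Cebpa and Mlxipl had r = 0.903 and, within genotypes, 0.731, while Mlxipl and Srebf1 had r = 0.841 and, within genotypes, 0.617. Cebpd ran against Ebf2, at r = −0.551 and, within genotypes, −0.859.

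Among 9736 well-expressed genes, those most like each of the 9 in pattern were also noted, 2 per gene, with r over the 8 libraries. Each r is 1 of the 2 highest among 9736 values over only 8 libraries. Values picked in this way can be high without any link between the genes. For Pparg they were Ptcd3 (0.975), a mitochondrial ribosomal protein gene, and Hk2 (0.972), a hexokinase gene. For Cebpa they were Hivep2 (0.988), a zinc-finger factor gene, and Slc2a4 (0.986), the insulin-responsive glucose transporter gene. Klf15 was most like Zfp423 (0.986), a regulator of preadipocyte commitment, and Plxna3 (0.978), a semaphorin receptor gene. Rxra was most like Plin3 (0.986), a lipid droplet protein gene, and Ppp2r1a (0.982), a scaffold subunit gene of protein phosphatase 2A.
For Mlxipl the most similar were Thbd (0.990), the thrombomodulin gene, and Aatk (0.971). For Ebf2 they were Srpk2 (0.977) and Chd7 (0.954), a chromatin remodeller gene. Srebf1 was most like Lrrc17 (0.958) and Rpp21 (0.951), Nr1h3 was most like Heatr3 (0.942) and Mrpl37 (0.939), and Cebpd was most like D8Ertd82e (0.948) and Sorbs3 (0.941). Rank correlations (Spearman's rho) were lower for some: 0.667 for Pparg and Ptcd3 and 0.762 for Cebpd and D8Ertd82e, against 0.833 to 0.976 for the other pairs. Thbd is known as an endothelial gene, and the endothelial markers, which did not overlap between the genotypes, moved in the same direction as Mlxipl; their part in the Mlxipl values was not tested.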

How the data were processed

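The authors deposited 1 table of whole-number read counts and FPKM values per gene and library, per the file headers; Novoalign 2.8.1, Picard and build mm10 are named in the submitters' processing notes, and the counting program was not given in the sources used here. Per the labels' protocols, libraries were made with a stranded poly(A) kit and read for 50 cycles. Each of the 158499 deposited FPKM values above 0 equalled the count divided by exonic length and library total within 0.1%. Counts were not normalised before deposit.

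Counts were tested with edgeR 4.0.16 in R 4.3.3 (filterByExpr with a minimum count of 10, TMM scaling, used for CPM too, quasi-likelihood F test of genotype with no covariate), with Benjamini-Hochberg adjustment over the 14800 genes tested and a calling threshold of 0.05. Standard errors and 95% intervals come from the test, and the procedure was tested on simulated data. The alternatives were DESeq2 1.42.0, limma-voom 3.58.1, other scalings and filters, a replicate block and left-out libraries. Promoter windows were read from RefSeq's table, and 1 was added to the file's start coordinates.

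The 9 genes, 7 linked lists and 7 marker lists were chosen with earlier results of these data known. All 204 list symbols were matched. Besides the 9 genes, the text names called list members and the 3 of lowest p per list. It also names 2 genes of most similar pattern per gene (mean of at least 10 CPM). Further paralogues, Scap, Insig1, Insig2, Mbtps1 and Mbtps2 were named after their values were seen. Replicates are the numbered mice of the sample titles. No 2 libraries of a genotype agreed within sampling noise (lowest chi-square per gene 20.8). P-values set the difference between the genotypes against the spread between mice of the same genotype, for these 8 mice.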

Additional observations from a re-analysis of the deposited data

Results flagged for a closer look

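In the 60 groups formed by 30 named genes and 2 genotypes, 5 had 1 mouse far from the other 3, relative to the range of the group; chance alone gives about 1 in 20 such groups. Among the 9 transcription factors this held only for Nr1h3, at 109 CPM in KO library 4. Among the linked genes it held for Nr3c1 at 235 CPM in WT library 1, for Acsl1 at 1184 CPM in KO library 4 and at 2313 CPM in WT library 3, and for Mylip at 138 CPM in WT library 3. These values were the highest of their group. They were kept in all comparisons.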

How the results depend on the processing

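The 9 genes were refitted under 18 alternatives each. Pparg, Cebpa, Klf15, Ebf2, Mlxipl, Srebf1 and Nr1h3 kept a negative log2 fold change in all 18, and none of the 9 passed the threshold except Mlxipl by DESeq2 (−0.66, adjusted p = 0.00102). The sign of Cebpd turned with limma-voom (−0.024), a replicate block (−0.017) and without KO libraries 2 and 3 (−0.30), and ran from −0.23 to 0.17 with 1 library left out. That of Rxra turned without KO libraries 2 and 3 (0.019) and ran from −0.10 to 0.027 with 1 library left out. Same-numbered KO and WT libraries were not the most alike in expression (same-number correlations −0.254 to 0.184, 1 of 4 numbers closest to its own). Such correlations cannot show whether the mice were paired in the design. The block gave 14 calls among all genes, against 60 without it.

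Calls among all genes numbered 813 by DESeq2, 3 without KO libraries 2 and 3, and 0 to 290 with 1 library left out; the 0 was without KO library 2 (edgeR, 1573 genes at an unadjusted p under 0.05). DESeq2, which called 5.49% of all genes, called 4 of 20 paralogues, 1 of 28 coregulators, 7 of 30 PPARγ and C/EBPα targets, 3 of 25 lipogenic, 1 of 11 LXR, 4 of 14 glucocorticoid and 2 of 10 KLF15-linked genes. The block, and leaving out KO libraries 2 and 3, each left 0 calls among the PPARγ and C/EBPα, lipogenic and KLF15-linked genes. Library size alone gave 0 lipogenic and 1 glucocorticoid call, and its 1 call among the PPARγ and C/EBPα targets was Plin4 (adjusted p = 0.0393) and not Lgals12 (0.0562); limma-voom gave 0 lipogenic and 0 KLF15-linked calls. With 1 library left out, calls ran from 0 to 1 for paralogues, PPARγ and C/EBPα targets and glucocorticoid genes, 0 to 2 for lipogenic genes and 0 to 3 for KLF15-linked genes. The causes were not tested.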
